A study of Homo sapiens with 12 samples.

Results

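The effect of a short hairpin RNA (shRNA) against IRF4 was measured in 6 of the 12 RNA sequencing libraries of TMD8 cells. TMD8 is an established human cell line of diffuse large B cell lymphoma, in its activated B cell (ABC) class. The 6 libraries were those whose names carry the number 1 directly after the group name: 3 from cells with a scramble shRNA, which has no intended target (controls), and 3 from cells with the shRNA against IRF4. They are called library series 1, and the other 6 libraries, with the number 2, series 2. Whether the number marks a hairpin, a culture or a batch is something the labels leave unsaid. All groups shared the cell line, the 24 h collection time and the shRNA as the agent, and the labels name no allele and no further treatment. Separate cultures for the libraries of a group are not stated, and the p-values therefore reflect the spread among these libraries alone, which may be technical. One characteristic gives each sample a cell line name with a different number, where all titles give TMD8, and the titles were followed. One line and 1 knockdown time limit the comparison as a model of IRF4 loss, and the hairpin sequences and the promoter that drives them are not given in the sources used here. Of 26318 genes in the deposited table, 16572 had enough counts to be tested in series 1.

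IRF4 is a transcription factor of the interferon regulatory factor family that is switched on by antigen receptor and NF-kB signals in lymphocytes. In B cells it works with ETS family partners such as PU.1 and SPIB, and with AP-1 proteins such as BATF, at composite DNA elements, and high IRF4 drives the plasma cell programme together with PRDM1 and XBP1. The interferon response element is bound by most members of the family, including IRF9, which acts downstream of the type I interferon receptor. ABC lymphomas are known for chronic B cell receptor and NF-kB signalling and for high IRF4.

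Depth was similar across series 1, with 31.3 to 35.9 M counts per control library and 31.9 to 34.7 M per IRF4 shRNA library (M, 1e6). At this depth a floor of 3 counts was 0.0836 to 0.0959 CPM (counts scaled to library size). Floors and intervals from counts cover counting error only. Control replicate 1 stood apart from the other controls, with a chi-square per degree of freedom of 9.80 and 12.1 against replicates 2 and 3, where that pair gave 3.35 and the pairs of IRF4 shRNA libraries 2.89 to 3.09. Counts deviated with transcript GC content in opposite directions in the groups. Spearman's rho across genes, which are not independent replicates, was -0.052, -0.29 and -0.33 in controls 1, 2 and 3 and 0.22 to 0.27 in the IRF4 shRNA libraries. Pseudogenes took 6.17 to 6.28% of counts in controls and 4.67 to 4.82% with IRF4 shRNA. Defining markers of other cell types could be tested only in part. Members with enough counts to test numbered 6 of 15 T cell, 2 of 15 NK cell and 4 of 15 myeloid markers. They numbered 1 of 11 erythroid and platelet and 7 of 15 stromal and epithelial markers. Of the B cell markers, all 15 were tested, with a summed level of 12156 to 12304 CPM in controls and 13102 to 13436 CPM with IRF4 shRNA.

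The targeted messenger RNA, IRF4, was below every control in each IRF4 shRNA library. Its level was 1434, 1571 and 1489 CPM in the 3 controls and 524, 508 and 523 CPM in the 3 IRF4 shRNA libraries (chromosome 6, 391752 to 411443, plus strand, hg38). The groups did not overlap, and the IRF4 shRNA libraries lay within a narrow band at 34.6% of the control level. The means were 1498 ± 69.03 and 518 ± 9.08 CPM (SD, n = 3 each), which puts the log2 fold change at -1.53 (SE 0.039; adjusted p = 5.71e-11 by edgeR). By an exact permutation test, two-sided, p was 0.1, and 3 against 3 cannot go lower.

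GZMB encodes granzyme B, a protease of cytotoxic granules that is also made by plasmacytoid dendritic cells and activated B cells. It read 177, 201 and 196 CPM in the controls and 8.01, 8.93 and 8.69 CPM with IRF4 shRNA (chromosome 14, 24630954 to 24634267, minus strand). Every IRF4 shRNA library was far below every control, and GZMB fell 22.4-fold (log2 fold change -4.48, SE 0.066). PRDM1 encodes BLIMP-1, the repressor that ends the B cell programme in plasma cells, and read 243, 254 and 258 CPM in the controls and 199.7, 191 and 192 CPM with IRF4 shRNA. IKZF3 encodes Aiolos, a lymphoid zinc finger factor, and read 431, 446 and 479 against 332, 327 and 339 CPM. Neither pair of groups overlapped, and both genes fell by much less than GZMB: PRDM1 1.30-fold (log2 fold change -0.37, SE 0.038) and IKZF3 1.36-fold (log2 fold change -0.44, SE 0.042).

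**Figure D1:**
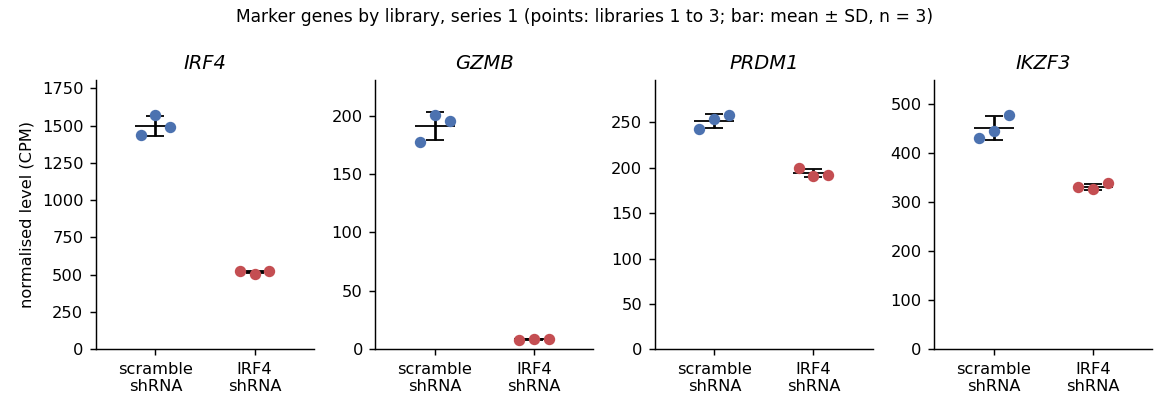
Normalised level (CPM, linear axis from 0) of IRF4, GZMB, PRDM1 and IKZF3 in each series 1 library. Points are libraries, bars the mean ± SD of 3. All 4 genes are lower in the 3 IRF4 shRNA libraries than in any control, with GZMB reduced to 4.47% of control and PRDM1 to 77.2%.

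Across the transcriptome, 8362 of 16572 genes (50.5%) passed edgeR's quasi-likelihood test at an adjusted p under 0.05. Of all genes tested, 4281 (25.8%) were higher with IRF4 shRNA and 4081 (24.6%) lower, and the median log2 fold change was -0.0021. Most of these changes were small, with 60.3% of them under 1.5-fold. Large changes were more often rises: 1229 genes rose and 521 fell at least 2-fold, 447 and 125 at least 4-fold, and 88 and 13 at least 16-fold. The libraries did not overlap, with all IRF4 shRNA libraries above all controls, in 29.4% of genes tested, and with all below in 29.0%. When TMM was left out and libraries were scaled by size, 63.4% of the calls were rises, against 51.2%, and the median moved up by 0.075 on the log2 scale. Genes that rose had a median transcript GC content of 55.0%, those that fell 46.6% and all tested genes 49.4%. When the per-library trend with GC was removed, 6961 of the calls (83.2%) remained, and 51.5% of calls were then rises. Without control replicate 1, 4679 genes were higher and 4515 lower.

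Protein-coding genes were called most often, with 30.7% of 12312 higher and 26.1% lower. Of 2097 long non-coding RNA genes 13.6% were higher and 18.9% lower. Pseudogenes were lower more often than higher, with 22.3% and 9.45% of 1916, and many are near-identical copies whose reads the counting could share with their parent genes.

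**Figure D2:**
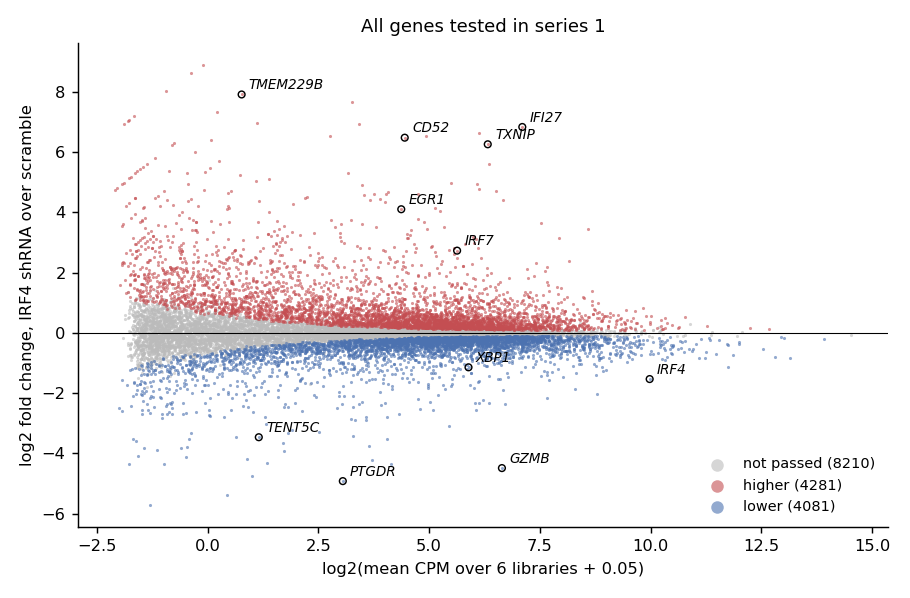
Log2 fold change (IRF4 shRNA over scramble) of each of the 16572 genes tested in series 1 against its mean level on a log2 scale, with an offset of 0.05 CPM. Red points are the 4281 higher genes, blue points the 4081 lower genes and grey points those that did not pass, and named genes are circled. Rises reach further from 0 than falls.

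The 12 largest rises and 12 largest falls were taken among genes that passed, with a mean of at least 1 CPM over the 6 libraries and no overlap between groups. Every one of the rises started below 3 CPM in each control. IFI27, an interferon-induced gene with a mitochondrial product, read 2.83, 2.36 and 1.93 CPM in the controls and 279, 271 and 267 CPM with IRF4 shRNA. TXNIP, which binds thioredoxin and limits glucose uptake, read 1.77, 2.45 and 1.96 CPM in the controls and 156, 159 and 159 CPM with IRF4 shRNA. In both genes the lowest IRF4 shRNA library was far above the highest control, with rises of 114-fold and 76.4-fold (log2 fold changes 6.83 and 6.26, SE 0.079 and 0.077). OTOF, known for vesicle release at hair cell synapses, read 1.66, 1.37 and 1.11 against 142, 128 and 148 CPM, a rise of 99.7-fold. CD52, a small surface glycoprotein of lymphocytes, read 0.343, 0.612 and 0.491 against 41.5, 43.8 and 43.9 CPM, a rise of 88.98-fold. SCIMP, a transmembrane adaptor of immune cells, read 0.114, 0.204 and 0.0982 against 13.2, 13.9 and 12.8 CPM. These 3 genes also had no overlap between groups, and each control was below 2 CPM.

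IFI44L and IFI44, neighbouring interferon-induced genes, read 0.542, 0.466 and 0.9496 and 0.200, 0.233 and 0.0655 CPM in the controls. With IRF4 shRNA they reached 62.99, 54.7 and 61.95 CPM and 20.9, 21.8 and 20.7 CPM. STUM, a membrane protein gene, had 9 counts over the 3 controls and 1942 over the IRF4 shRNA libraries. Its ratio of 220 has a 95% exact counting interval from 116 to 483. In 4 of the 12 largest rises the controls held only 1 to 3 counts together, so the size of the change is poorly set. TMEM229B had 1 control count against 339, a ratio of 346 (95% interval 61.7 to 13718), and ECEL1, a membrane peptidase gene, 1 against 226, a ratio of 231 (41.0 to 9159). PIK3R6, a regulatory subunit of PI3 kinase gamma, had 3 against 429, a ratio of 146 (49.7 to 711), and PRF1, which encodes the pore protein perforin, 2 against 204, a ratio of 104 (28.5 to 866).

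GZMB was the most abundant of the 12 largest falls. PTGDR, a prostaglandin D2 receptor, read 15.2, 16.5 and 16.2 CPM in the controls and 0.490, 0.583 and 0.504 CPM with IRF4 shRNA, a fall of 30.2-fold (log2 fold change -4.92, SE 0.13). KCNA3 encodes the voltage-gated potassium channel Kv1.3 of lymphocytes and read 23.9, 25.5 and 24.8 against 1.153, 1.53 and 1.29 CPM, a fall of 18.6-fold. FRMPD1, a scaffold protein gene, read 22.1, 23.2 and 23.6 against 2.02, 1.53 and 1.597 CPM. In all 3 the groups were far apart. MS4A6A, a member of the family of CD20, read 28.6, 28.8 and 34.2 CPM in the controls and 2.74, 3.04 and 2.30 CPM with IRF4 shRNA. CLEC4C, the lectin receptor BDCA-2 of plasmacytoid dendritic cells, read 3.28, 2.97 and 4.03 against 0.202, 0.0614 and 0.280 CPM. TGFA, a ligand of the EGF receptor, read 6.42, 5.63 and 6.35 against 0.288, 0.491 and 0.420 CPM. None of these groups overlapped, and the fall was 11.4-fold for MS4A6A, 18.2-fold for CLEC4C and 15.3-fold for TGFA.

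The other 5 largest falls were of genes under 6 CPM in every control. PSD2 fell 19.97-fold from 4.73 ± 0.889 CPM, TENT5C, a poly(A) polymerase gene of plasma cells, 11.01-fold from 3.99 ± 1.17 CPM and TLCD4 10.8-fold from 2.77 ± 0.311 CPM (SD, n = 3 each). GUCA1A, which encodes an activator of guanylate cyclase in photoreceptors, had 255 counts in the controls and 6 with IRF4 shRNA, a ratio of control to knockdown of 41.6 (95% counting interval 18.9 to 114). NME1-NME2, a readthrough of neighbouring genes whose reads can be shared with both, read 1.54, 3.85 and 5.99 CPM in the controls and 0, 0.0307 and 0.364 CPM with IRF4 shRNA, and its controls were the most spread of the 12.

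**Figure D3:**
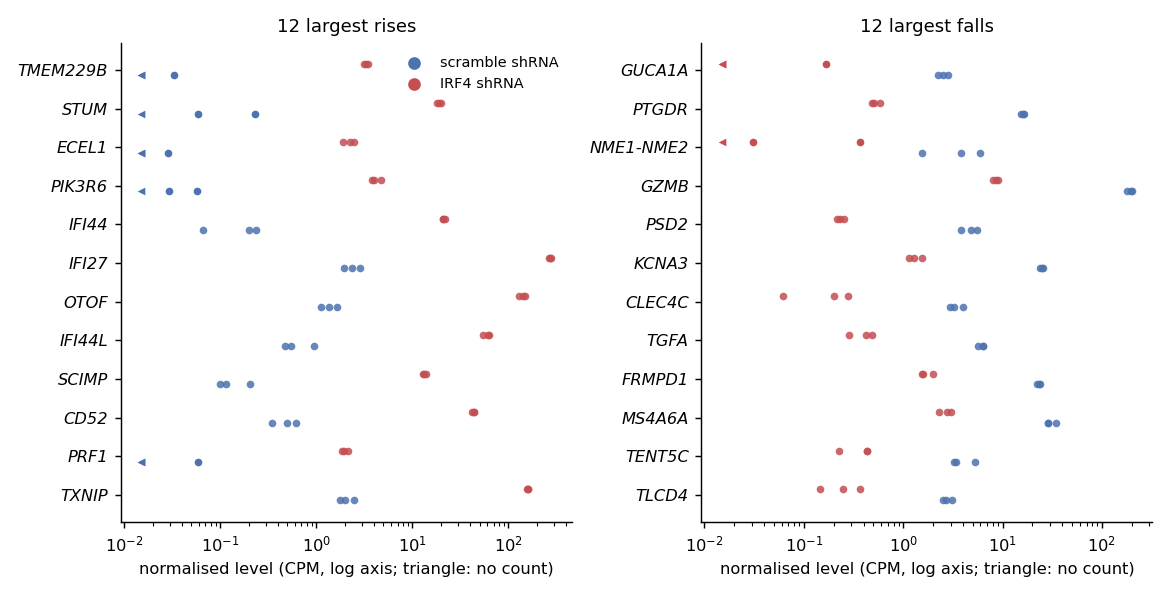
Normalised level (CPM, log axis) in each series 1 library of the 12 largest rises and the 12 largest falls, ordered by log2 fold change. Blue points are scramble libraries, red points IRF4 shRNA libraries, and triangles at the left edge mark libraries with no count. No gene has overlapping groups, and 4 of the rises had at most 3 counts over all controls.

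Interferon-stimulated effector genes rose without exception among those tested. Of 50 listed effectors 47 had enough counts, and 47 rose, against 25.8% of all genes, with a median log2 fold change of 2.39, against -0.0021. HERC5, CMPK2 and GBP5 had too few counts to test. The rise was at least 2-fold in 39, and the median lies at 2.39 also with RSAD2, which had a single control count, set to its lower bound. All 47 were higher with each alternative run on the list, where the median ran from 2.33 to 2.53. OAS3, an antiviral enzyme that makes the activator of RNase L, read 27.1, 26.4 and 28.1 CPM in the controls and 345, 331 and 342 CPM with IRF4 shRNA. OAS2, of the same family, read 47.9, 47.9 and 51.4 against 437, 432 and 443 CPM. IFIT1, which binds foreign RNA ends, read 3.31, 2.77 and 3.90 against 160.5, 154 and 164 CPM. The groups of these 3 genes were far apart and their libraries tight, with rises of 12.5-fold, 8.92-fold and 48.2-fold (SE of the log2 fold change 0.043, 0.042 and 0.081).

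Receptors, kinases, factors and inhibitors of the interferon pathway also rose more often than genes at large, by smaller amounts. Of 22 tested members (29 listed) 17 rose (77.3%, against 25.8% of all genes) and 3 fell (13.6%, against 24.6%). Their median was 0.35. With the GC trend removed 14 rose and 4 fell. The rises include the inhibitors SOCS1, SOCS3 and USP18, and USP18 is also in the effector list. No ligand was among those that rose or fell. The ligand genes IFNB1 and IFNG had too few counts to test, and IFNA1, IFNL1, IFNK and IFNE were not analysed here. The receptor chains IFNAR1 and IFNGR2 and the kinase JAK2 were the 3 that fell. IRF9, a factor of type I interferon signalling, read 49.5, 43.8 and 49.6 CPM in the controls and 88.6, 84.3 and 84.6 CPM with IRF4 shRNA. IRF7, which drives interferon gene transcription, read 16.3, 11.02 and 11.5 against 88.7, 80.5 and 89.05 CPM. IRF9 rose 1.80-fold and IRF7 6.63-fold, both with no overlap. Their log2 fold changes were 0.81 and 2.15 with the GC trend removed, against 0.85 and 2.73. USP18, a negative regulator at the interferon receptor, rose 9.67-fold to 41.1 ± 1.14 CPM (SD, n = 3). IRF8, the family member closest to IRF4, read 94.5, 94.5 and 88.9 against 102, 104 and 95.8 CPM. Its small rise (log2 fold change 0.12, edgeR adjusted p = 0.0476) did not pass in 7 of 16 alternatives, in which the adjusted p over all ran from 0.0038 to 0.168.

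Sensors of foreign nucleic acid, with their adaptors and kinases, rose in 16 of 24 tested cases (66.7%, against 25.8% of all genes). They fell in 2 (8.33%, against 24.6%), with a median of 0.49. The 3 RNA sensors of the RIG-I family rose: DDX58, which encodes RIG-I, from 24.6 ± 2.08 to 73.9 ± 0.997 CPM, IFIH1, which encodes MDA5, from 22.7 ± 0.759 to 67.1 ± 1.40 CPM, and DHX58 from 6.70 ± 0.470 to 30.3 ± 0.694 CPM (SD, n = 3 each). The dNTP hydrolase gene SAMHD1 rose 2.41-fold and TLR7, the endosomal receptor of single-stranded RNA, 2.14-fold. The adaptor TRAF3 and the kinase IRAK4 were the members that fell.

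The promoters of the effectors held the core of the interferon response element more often than promoters at large. RefSeq promoters (GRCh38.p14, 250 bases before to 50 after the start) were found for 37 of the 47 tested effectors, and 27 of these (73.0%) held GAAANNGAA on either strand. The same letters were in 8.29% of 27305 promoters, in 6.98% of those of 10356 genes tested, in 10.6% of 790 genes that rose at least 2-fold and in 6.77% of 266 that fell at least 2-fold. Outside the effector list, 7.77% of the 759 genes with at least a 2-fold rise held it. The core GGAANNGAA of the ETS-IRF composite element was in 10 of the 37 effector promoters (27.0%), against 7.84% of all, 8.73% of the 2-fold rises and 7.89% of the 2-fold falls. Matches of the 2 cores overlapped in 4 of the 37 promoters and in 0.249% of all. The AP-1 site TGANTCA was in 7.76% of all promoters, 4.35% of genes tested, 7.22% of the 2-fold rises and 6.77% of the 2-fold falls. Among the 12 largest falls it was present in the promoters of GZMB, KCNA3 and NME1-NME2, while neither IRF core was in any of the 12. A match describes the letters in this window and does not show a bound site.

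The stretches below were chosen to show the arrangement of the cores upstream of effectors and regulators that rose, with joined matches (ISG15, RTP4, BST2, IFIH1, CD274), 2 separate matches (IFIT1, IFI27) or 1 match in the stretch (OAS3, IFI44L), and the AP-1 site of the falls GZMB and KCNA3. Each is read 5′ to 3′ on the gene's strand, with matches in capitals, GAAANNGAA or its reverse complement in the first 9 and TGANTCA in the last 2.
ISG15 (chr1:1013369-1013419, plus strand): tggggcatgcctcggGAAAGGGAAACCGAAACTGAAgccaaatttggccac
RTP4 (chr3:187368328-187368372, plus strand): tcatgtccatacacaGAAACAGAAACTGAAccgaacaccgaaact
BST2 (chr19:17405731-17405775, minus strand): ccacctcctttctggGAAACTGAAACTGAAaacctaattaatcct
IFIH1 (chr2:162318813-162318863, minus strand): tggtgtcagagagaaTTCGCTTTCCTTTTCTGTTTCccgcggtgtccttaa
CD274 (chr9:5450320-5450364, plus strand): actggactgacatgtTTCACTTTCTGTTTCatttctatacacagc
OAS3 (chr12:112938316-112938354, plus strand): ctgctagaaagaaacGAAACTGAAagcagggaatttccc
IFIT1 (chr10:89392493-89392531, plus strand): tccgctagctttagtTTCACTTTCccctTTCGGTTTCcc
IFI27 (chr14:94110614-94110652, plus strand): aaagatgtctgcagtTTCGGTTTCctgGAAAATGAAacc
IFI44L (chr1:78620269-78620307, plus strand): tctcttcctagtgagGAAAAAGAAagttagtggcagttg
GZMB (chr14:24634383-24634419, minus strand): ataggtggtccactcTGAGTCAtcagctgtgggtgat
KCNA3 (chr1:110671917-110671953, minus strand): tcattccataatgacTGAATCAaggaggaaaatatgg
The ubiquitin-like modifier ISG15, with 3 joined cores, rose from 9.04 ± 2.17 to 195 ± 13.4 CPM (21.5-fold), the receptor transport gene RTP4 from 1.85 ± 0.225 to 8.77 ± 0.906 CPM (4.75-fold) and BST2, which encodes the virus tether tetherin, from 45.4 ± 2.01 to 147 ± 3.70 CPM (3.24-fold; SD, n = 3 each). These 3 were chosen for their sequences after their values were seen. CD274, which encodes the T cell inhibitory ligand PD-L1, rose 3.38-fold.

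Immediate early genes, which respond within minutes to receptor and MAPK signals, were the list with the next highest median. Of 25 tested members (29 listed) 22 rose (88%, against 25.8% of all genes) and 1 fell, with a median of 1.5. Rises of at least 2-fold numbered 15. ATF3 was the member that fell. With the GC trend removed 19 rose and 2 fell, with a median of 1.57. EGR2 and EGR3, zinc finger factors induced by antigen receptor signals, read 3.14, 2.45 and 2.75 and 0.628, 0.787 and 0.753 CPM in the controls. With IRF4 shRNA they read 92.5, 86.9 and 81.9 and 23.5, 20.4 and 20.7 CPM. EGR1 read 2.48, 2.48 and 1.80 against 40.4, 40.1 and 36.6 CPM, and all 3 were separated without overlap, with rises of 31.3-fold, 29.7-fold and 17.2-fold. The orphan nuclear receptor gene NR4A3, another antigen receptor target, rose 6.41-fold to 60.2 ± 3.80 CPM (SD, n = 3).

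Phosphatases and inhibitors of MAPK signalling, listed with factors such as ETV4 and ETV5, were also mostly higher. Of 20 tested members 15 rose (75%, against 25.8% of all genes) and 3 fell (15%, against 24.6%), with a median of 0.55. DUSP5, DUSP22 and NF1 were those that fell, while DUSP6, SPRY1 and SPRY2 had too few counts. The MAPK phosphatase gene DUSP2 read 25.2, 24.1 and 22.1 CPM in the controls and 96.4, 90.2 and 88.6 CPM with IRF4 shRNA. DUSP4, of the same family, read 2.34, 1.11 and 1.54 against 21.1, 19.8 and 20.8 CPM. They rose 3.85-fold and 12.3-fold with no overlap. ETV5, an ETS factor induced by ERK, rose 2.79-fold and RASAL1, a Ras GTPase activating protein, 2.03-fold. Their log2 fold changes were 1.51 and 0.75 with the GC trend removed, against 1.48 and 1.02.

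The PI3 kinase module had 16 of 30 tested members up (53.3%, against 25.8% of all genes) and 7 down (23.3%, near the 24.6% of all genes), with a median of 0.17. The catalytic subunit gene of PI3 kinase gamma, PIK3CG, read 11.8, 14.6 and 13.4 CPM in the controls and 49.4, 50.1 and 51.9 CPM with IRF4 shRNA. PIK3R1, the regulatory subunit of the class IA enzymes, read 125, 138 and 132 against 83.9, 88.1 and 86.5 CPM. Without overlap in either, PIK3CG rose 3.80-fold and PIK3R1 fell 1.53-fold. The other class IA genes that passed, PIK3CB, PIK3CD and PIK3R2, also fell.

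No chemokine ligand tested fell, and the members that fell were receptors. Of 22 tested members (29 listed) 11 rose (50%, against 25.8% of all genes) and 4 fell (18.2%, against 24.6%), with a median of 0.48. CCL3 and CCL4, inflammatory chemokines whose genomic copies can share reads, read 0.485, 0.321 and 0.524 and 1.37, 1.14 and 1.38 CPM in the controls. In the IRF4 shRNA libraries they read 18.6, 16.7 and 16.9 and 31.01, 31.5 and 31.4 CPM, rises of 39.2-fold and 24.2-fold. CCL22, which attracts regulatory T cells, rose 4.82-fold from 13.1 ± 0.592 CPM (SD, n = 3). CXCR4, the receptor that holds B cells in the marrow and the germinal centre dark zone, read 252, 223 and 237 against 130.3, 129 and 131 CPM, a fall of 1.82-fold. CCR10, CXCR3 and P2RY8 were the other members that fell.

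Cytokines and their receptors had 17 of 26 tested members higher (65.4%, against 25.8% of all genes) and 5 lower (19.2%, against 24.6%). Their median was 0.57. The lymphotoxin genes LTA and LTB, which shape lymphoid tissue, read 28.2, 24.96 and 29.99 and 12.96, 11.4 and 9.496 CPM in the controls and 75.4, 79.1 and 78.9 and 67.2, 80.7 and 78.5 CPM with IRF4 shRNA. The receptor chains IL2RB and IL2RG rose 3.08-fold and 2.07-fold, to 69.1 ± 2.63 and 171 ± 6.28 CPM (SD, n = 3 each). IL10, a B cell cytokine that ABC lymphomas make, read 5.05, 8.05 and 6.22 against 48.4, 46.9 and 42.4 CPM, a rise of 7.12-fold. All of these groups were separated. IL6R, IL6ST, IL12A, IL13RA1 and IL16 were the members that fell.

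A list of ligands through which B cells act on T cells, with some receptors and HVCN1, had 15 rises and 5 falls of 21 tested. The rises (71.4%) exceeded the 25.8% of all genes, the falls (23.8%) were near the 24.6%, and the median was 0.86. CD274 read 34.8, 33.4 and 33.9 CPM in the controls and 116, 114 and 115 CPM with IRF4 shRNA. LGALS9, which encodes galectin-9, read 5.82, 4.93 and 4.72 against 58.6, 55.1 and 56.2 CPM, a rise of 10.9-fold. The proton channel gene HVCN1, which modulates B cell receptor signals, rose 3.99-fold to 50.7 ± 2.51 CPM (SD, n = 3). CD47, CD48, CD58 and the receptors TNFRSF13B and TNFRSF17 of BAFF and APRIL fell. The 15 rises were also 15 with the GC trend removed, while the falls were 3 with it removed or without control replicate 3, and 2 without control replicate 2, IRF4 shRNA replicate 2 or IRF4 shRNA replicate 3.

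Of 12 tested cytotoxic granule genes (19 listed) 9 rose (75%, against 25.8% of all genes) and 3 fell (25%, near the 24.6%). Their median was 0.69. The 3 that fell were the granzyme genes GZMB and GZMH and CTSC, which encodes cathepsin C, the protease that activates granzymes. CTSC read 499, 476 and 499.8 CPM in the controls and 136, 139 and 130.02 CPM with IRF4 shRNA, a fall of 3.64-fold with no overlap. The lysosomal protease gene CTSH rose 2.75-fold, and SERPINB9, the inhibitor of granzyme B, rose 2.14-fold from 74.8 ± 2.09 CPM (SD, n = 3). The summed level of NK cell markers was 0.758 to 0.917 CPM in the controls and 1.84 to 2.58 CPM with IRF4 shRNA, and its part in these rises was not tested.

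Genes best known from plasmacytoid dendritic cells, interferon-producing cells that share factors with B cells, moved in both directions. Of 22 tested members 7 rose (31.8%, against 25.8% of all genes) and 11 fell (50%, against 24.6%), with a median of -0.12. TCF4, the factor that defines that lineage, read 869, 972 and 993 CPM in the controls and 602, 591 and 604 CPM with IRF4 shRNA, a fall of 1.58-fold. GZMB, PTGDR, CLEC4C, IL3RA, SPIB and JCHAIN were among those that fell, and IRF7, IRF8, TLR7, TLR9 and LILRA4 among those that rose. The rise of IRF8 did not pass in 7 of 16 alternatives. SPIB, an ETS partner of IRF4, read 2820.2, 2636 and 2606 against 2514, 2376 and 2315 CPM. Its fall had a log2 fold change of -0.16 (edgeR adjusted p = 0.00649). This fall did not pass with library size alone (-0.087) or in the fit over all 12 libraries (-0.14). It was larger with the GC trend removed, at -0.44 (edgeR adjusted p = 1.31e-07). Over 16 alternatives the adjusted p ran from 1.31e-07 to 0.101.

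B cell receptor signalling genes rose more often than they fell, with 18 and 6 of 36 tested and a median of 0.11. The shares were 50% and 16.7%, against 25.8% and 24.6% of all genes. CD22, an inhibitory Siglec, read 293, 309.7 and 299.9 CPM in the controls and 599.6, 603 and 595 CPM with IRF4 shRNA. PTPN6, the phosphatase SHP-1 that CD22 recruits, read 216, 228 and 231 against 580.4, 609 and 574 CPM. Both rose with no overlap, by 1.99-fold and 2.61-fold. NFATC1, a factor activated by calcium, rose 7.09-fold from 17.1 ± 1.93 to 121 ± 2.86 CPM, and the receptor chain gene CD79A 1.76-fold from 656 ± 18.3 to 1151 ± 8.31 CPM (SD, n = 3 each). For NFATC1 and CD79A the log2 fold changes were 2.65 and 0.57 with the GC trend removed, against 2.83 and 0.81. The SRC family kinase genes BLK and LYN, the complement receptor gene CR2, FCRLA and NFATC2 were among those that fell. BLK read 34.7, 34.9 and 32.1 against 14.8, 13.3 and 15.7 CPM, a fall of 2.32-fold.

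NF-kB subunits, inhibitors and targets had 14 up (48.3%, against 25.8% of all genes) and 5 down (17.2%, against 24.6%) of 29. Their median was 0.13, and 8 were down with the GC trend removed. The deubiquitinase gene TNFAIP3, which encodes the inhibitor A20, read 221, 226 and 225 CPM in the controls and 103, 101 and 99.2 CPM with IRF4 shRNA. MAP3K14, the kinase NIK of the alternative pathway, read 123, 124 and 124 against 64.7, 60.7 and 61.4 CPM. TNFAIP2, a TNF target, read 120.5, 109.8 and 113 against 19.7, 18.4 and 19.8 CPM. All 3 fell without overlap, by 2.21-fold, 1.98-fold and 5.93-fold, while the activation marker CD83 rose 2.22-fold from 226 ± 3.29 CPM (SD, n = 3).

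Receptors of the SLAM, FCRL and Siglec families were listed together with other surface receptors. Members outside these families included FCMR, FCER2, FCGR2B, CD72, LILRB1 and LAIR1, all of which rose. The whole list had 18 rises and 5 falls of 25 tested (33 listed). These shares of 72% and 20% compare with 25.8% and 24.6% of all genes, and the list median was 0.51. FCMR, the receptor of IgM, read 13.5, 14.1 and 13.5 CPM in the controls and 113, 125 and 120.01 CPM with IRF4 shRNA, a rise of 8.69-fold. CD72, a lectin that inhibits the B cell receptor, rose 1.94-fold from 206 ± 6.26 CPM (SD, n = 3). SIGLEC6 moved the other way, at 653, 736 and 729.96 against 174, 174 and 169.9 CPM, a fall of 4.09-fold with no overlap. CD48, SLAMF7, FCRL2 and FCRLA were the other members that fell, and near-identical members such as SIGLEC5 and SIGLEC14 can share reads.

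Genes of the plasma cell and secretory programme fell. Of 30 members, all tested, 23 fell (76.7%, against 24.6% of all genes) and 1, ST6GAL1, rose (2 members without control replicate 1), with a median of -0.47. One of the falls is IRF4, the target of the shRNA, whose fall was intended. The summed level of the list, with IRF4 included, was 5400 to 5571 CPM in the controls and 3253 to 3309 CPM with IRF4 shRNA. XBP1, the factor that expands the secretory pathway, read 85.4, 73.8 and 85.3 CPM in the controls and 35.8, 37.3 and 37.7 CPM with IRF4 shRNA. ERN1, which encodes IRE1, the endonuclease that splices XBP1 messenger RNA, read 121, 115 and 115 against 23.5, 22.7 and 23.1 CPM. CREB3L2, a membrane-bound factor of the secretory pathway, read 293, 295 and 298 against 112, 110.4 and 111 CPM. No groups overlapped, and the falls were 2.21-fold, 5.07-fold and 2.66-fold. POU2AF1, the coactivator OCA-B, fell 1.62-fold from 258 ± 9.77 CPM (SD, n = 3).

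Germinal centre genes were split, with 14 of 26 tested higher (53.8%, against 25.8% of all genes) and 9 lower (34.6%, against 24.6%). Their median was 0.39. BCL6, the repressor that defines the germinal centre, read 41.3, 36.2 and 37.2 CPM in the controls and 54.95, 55.8 and 52.8 CPM with IRF4 shRNA, a rise of 1.43-fold. LMO2, a marker of the germinal centre class of lymphoma, read 28.8, 26.9 and 30.7 against 125, 134 and 126 CPM, and ITPKB, a kinase of inositol phosphates, read 11.5, 13.3 and 13.7 against 101, 103 and 96.5 CPM. The groups did not overlap, with rises of 4.47-fold and 7.81-fold. The adaptor gene STAP1 rose 21.3-fold to 23.96 ± 1.37 CPM and KLHL6, a ubiquitin ligase adaptor needed for germinal centres, 3.04-fold to 85.2 ± 5.35 CPM (SD, n = 3 each).

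Of 31 tested genes that classify ABC lymphoma, 17 fell (54.8%, against 24.6% of all genes), among them the shRNA target IRF4. The 8 rises (25.8%) were at the share of all genes (25.8%), and the median was -0.15. The members that rose included IL10 and PTPRJ, a receptor phosphatase whose level went from 161 ± 7.99 to 319 ± 1.78 CPM (SD, n = 3 each). CCND2, a G1 cyclin, read 566, 590.4 and 569 CPM in the controls and 366, 364 and 374 CPM with IRF4 shRNA, a fall of 1.56-fold. When libraries were scaled by size without TMM, 14 of this list fell and 10 rose.

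Transcription factors of lymphocytes moved in both directions, with 19 up and 14 down of 39 tested and a median of 0.12. Their shares were 48.7% and 35.9%, against 25.8% and 24.6% of all genes. With the GC trend removed the counts were 15 and 15. SPI1, which encodes the IRF4 partner PU.1, read 11.5, 9.13 and 8.74 CPM in the controls and 47.6, 45.7 and 46.5 CPM with IRF4 shRNA, a rise of 4.75-fold. STAT5A, a factor of cytokine signalling, read 1.48, 1.46 and 0.917 against 18.04, 16.7 and 17.4 CPM, a rise of 13.3-fold. IKZF1, which encodes Ikaros, read 702, 764 and 752 against 600.1, 599.8 and 585 CPM, a fall of 1.24-fold. No groups overlapped in these 3. Among 15 B cell identity markers 8 rose (53.3%, against 25.8% of all genes) and 4 fell (26.7%, near the 24.6%). With the GC trend removed 6 rose and 6 fell.

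The unfolded protein response, which adjusts folding capacity in the endoplasmic reticulum (ER), was mostly lower. Of 31 members 22 fell (70.97%, against 24.6% of all genes) and 3 rose (9.68%, against 25.8%), with a median of -0.31. The rises were PDIA3, EDEM2 and CRELD2. None of these 3 rises passed without control replicate 2, and 1 member rose without IRF4 shRNA replicate 2. SEL1L, the core of the ER degradation complex, read 376, 381 and 379 CPM in the controls and 138, 136 and 140.3 CPM with IRF4 shRNA. EDEM1, a mannosidase that marks proteins for degradation, read 341, 337 and 336 against 146, 143 and 148 CPM. HERPUD1, an ER stress gene of the same complex, read 434, 405 and 406 against 198, 190.1 and 188 CPM. All 3 fell without overlap, by 2.74-fold, 2.32-fold and 2.16-fold.

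Genes of the amino acid response, serine and folate synthesis and transfer RNA charging also fell, 25 of 39 (64.1%, against 24.6% of all genes). The rises numbered 4 (10.3%, against 25.8%), and the median was -0.21. ALDH1L2, a mitochondrial folate enzyme, read 172, 180.1 and 177 CPM in the controls and 33.8, 33.3 and 35.9 CPM with IRF4 shRNA. SLC7A11, the cystine transporter, read 109, 103 and 105 against 61.2, 59.1 and 63.2 CPM. ATF5, a factor induced by stress, read 5447, 4778 and 4001 against 2199, 2160.3 and 2103 CPM, with the controls far more spread than the IRF4 shRNA libraries. The falls were 5.13-fold, 1.73-fold and 2.20-fold, with no overlap. SHMT2, the mitochondrial serine enzyme, fell 1.43-fold. CHAC1, MTHFD1, TARS1 and VARS1 were the members that rose, but none of these 4 passed without control replicate 2 or 3 or without IRF4 shRNA replicate 1 or 3. Without IRF4 shRNA replicate 2 1 member rose, and with DESeq2 or with the GC trend removed 2 did.

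Cytosolic ribosomal protein genes, which are transcribed in step, fell together by small amounts. Of 76 genes 65 fell (85.5%, against 24.6% of all genes) and 2 rose (2.63%, against 25.8%), none by 2-fold. The rises were RPS15 and RPS26, and the median was -0.44. Without control replicate 1, 65 fell and 6 rose. Neither of the 2 rises passed without control replicate 3 or without IRF4 shRNA replicate 1 or 2, and 1 gene rose without control replicate 2 or IRF4 shRNA replicate 3. The summed level was 84022 to 90056 CPM in the controls and 63610 to 65886 CPM with IRF4 shRNA. RPL5, a subunit that also stabilises p53, read 1647, 1712 and 1664 CPM in the controls and 898, 939 and 886 CPM with IRF4 shRNA, a fall of 1.84-fold. RPL3, RPLP0 and RPS6 fell 1.80-fold, 1.77-fold and 1.63-fold. These genes have many processed copies with which reads can be shared. Pseudogene counts were also lower with IRF4 shRNA, and their part in the fall was not tested.

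Ribosome biogenesis and MYC network genes rose in 13 (37.1%) and fell in 8 (22.9%) of 35 cases, with a median of 0.055. The falls were near the 24.6% of all genes, and the rises above the 25.8%. Without control replicate 1 the counts were 14 and 12. MYC itself read 121, 122 and 122 CPM in the controls and 147, 137 and 131 CPM with IRF4 shRNA (log2 fold change 0.19, edgeR adjusted p = 0.00514). The rise was 0.066 with the GC trend removed (adjusted p = 0.266) and did not pass in 3 of 16 alternatives, over which the adjusted p ran from 0.000585 to 0.285. TFRC, the transferrin receptor, read 1255, 1367 and 1318 against 805, 802 and 792 CPM, a fall of 1.64-fold. The polyamine enzyme gene ODC1 fell 1.51-fold and the nucleolar gene NPM1 1.33-fold.

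Replication and mitosis genes moved in opposite directions, both by less than 2-fold. Of 38 S phase genes 18 rose (47.4%, against 25.8% of all genes) and 4 fell (10.5%, against 24.6%), with a median of 0.19. Of 35 genes of G2 and mitosis 2 rose (5.71%, against 25.8%) and 23 fell (65.7%, against 24.6%), with a median of -0.22. Without control replicate 1, 1 rose and 27 fell. The rises numbered 1 without each library other than control replicate 2. TYMS, which makes thymidylate, read 35.2, 38.7 and 36.5 CPM in the controls and 61.9, 65.4 and 65.6 CPM with IRF4 shRNA, and FEN1, the flap endonuclease, 58.4, 59.4 and 57.6 against 92.7, 97.5 and 94.3 CPM. The mitotic kinase gene NEK2 read 26.5, 29.7 and 29.4 against 17.9, 18.96 and 21.1 CPM and the cytokinesis gene ECT2 34.5, 39.4 and 38.05 against 23.7, 23.96 and 28.02 CPM. TYMS rose 1.75-fold and FEN1 1.62-fold, while NEK2 fell 1.47-fold and ECT2 1.48-fold, each without overlap. Of 22 G1 regulators 7 were up and 7 down (31.8% each way), near the shares of all genes (25.8% and 24.6%). CCND3 rose 2.32-fold from 16.6 ± 0.533 to 38.5 ± 0.689 CPM, CDK2 1.55-fold and the antiproliferative gene TOB1 2.05-fold.

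BCL2 family and other apoptosis regulators had 14 rises (43.8%, against 25.8% of all genes) and 8 falls of 32 tested, with a median of 0.13. At 25%, the falls were near the 24.6% of all genes. The sensitizer genes BIK and HRK, which oppose survival proteins, read 1.77, 1.52 and 1.34 and 52.1, 53.6 and 54.5 CPM in the controls and 14.1, 14.5 and 13.8 and 107, 101 and 106 CPM with IRF4 shRNA. BCL2L11, which encodes the activator BIM, read 926, 982 and 982 against 751, 738 and 751 CPM. The groups did not overlap in any of the 3, with rises of 9.12-fold and 1.96-fold and a fall of 1.29-fold. CASP1, the inflammatory caspase, rose 2.73-fold from 5.76 ± 0.484 CPM (SD, n = 3), and BCL2 and BCL2L1 were among those that fell.

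Antigen presentation genes mostly rose, and most of the rises were under 2-fold. Of 22 class I genes 15 rose (68.2%, against 25.8% of all genes) and 2 (TAPBP and CALR) fell, with a median of 0.45. Of 17 class II genes 12 rose (70.6%, against 25.8%) and 2 (RFX5 and RFXAP) fell (11.8%, against 24.6%), with a median of 0.18. Rises of at least 2-fold numbered 2 in class I, HLA-F (log2 fold change 1.37) among them. In class II there was 1, HLA-DQB1 (1.45). The falls numbered 1 in class I without IRF4 shRNA replicate 1 or 3, and 1 in class II without control replicate 2 or any of the IRF4 shRNA libraries. HLA-E, the ligand of inhibitory NK receptors, read 288, 296 and 270.04 CPM in the controls and 546, 542 and 527 CPM with IRF4 shRNA. TAP1, a subunit of the peptide transporter, read 37.5, 37.7 and 40.1 against 72.4, 70.7 and 71.7 CPM. HLA-DRB1 read 197, 202 and 201 against 331, 335 and 336 CPM. Each rose without overlap, by 1.89-fold, 1.86-fold and 1.67-fold, and HLA genes can share reads with one another. Their log2 fold changes were 0.65, 0.88 and 0.72 with the GC trend removed, against 0.92, 0.90 and 0.74.

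Heat shock proteins and their partners rose in 18 (60%, against 25.8% of all genes) and fell in 5 (16.7%, against 24.6%) of 30 cases. Their median was 0.34. HSP90AA1, the inducible chaperone HSP90 alpha, read 880.1, 775 and 818 CPM in the controls and 1253, 1253 and 1151 CPM with IRF4 shRNA, a rise of 1.48-fold. DNAJA1, HSPA4 and HSPA8 rose 1.48-fold, 1.39-fold and 1.35-fold. The fall of HSPA1A, which shares reads with HSPA1B, rested mainly on control replicate 1, with 15.6, 0.700 and 1.57 CPM in the controls and 0.432, 0.859 and 0.168 CPM with IRF4 shRNA. Its log2 fold change was -3.65 (edgeR adjusted p = 0.0127) and -1.22 without that library (adjusted p = 0.0337). HSPA6, another inducible member, did not pass and read 19.2, 1.98 and 1.11 CPM in the controls and 2.16, 2.64 and 2.21 CPM with IRF4 shRNA. Both were named after their values were seen, and the high reading in each was that of control replicate 1.

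Adhesion receptors had 14 rises (60.9%, against 25.8% of all genes) and 8 falls (34.8%, against 24.6%) of 23 tested (29 listed). Their median was 0.32. ITGB2, the shared chain of the leukocyte integrins, read 8.34, 7.58 and 7.89 CPM in the controls and 52.99, 62.4 and 60.3 CPM with IRF4 shRNA, and its partner ITGAX 11.4, 11.5 and 10.5 against 39.6, 41.4 and 46.4 CPM. ITGB3, the beta chain of the vitronectin receptor, read 17.2, 19.2 and 17.5 against 5.42, 5.64 and 6.16 CPM and CDH1, which encodes E-cadherin, 67.2, 78.1 and 65.9 against 20.6, 21.9 and 22.1 CPM. ITGB2 and ITGAX rose 7.37-fold and 3.82-fold and ITGB3 and CDH1 fell 3.12-fold and 3.27-fold, with no overlap.

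Among markers of other cell types, summed levels were lowest for NK cells and for erythroid cells and platelets. The measured erythroid and platelet markers summed to 1.54 to 2.27 CPM in the controls and 1.41 to 2.02 CPM with IRF4 shRNA. Of the 10 measured NK cell markers, 4 had no count in any series 1 library. The 8 measured T cell markers summed to 30.9 to 35.2 CPM in the controls and 30.3 to 32.5 CPM with IRF4 shRNA. Among T cell markers CD247 and TRAC rose to 0.830 ± 0.194 and 0.563 ± 0.141 CPM, and CD4 fell 1.61-fold from 6.22 ± 0.954 to 3.88 ± 0.345 CPM (SD, n = 3 each). The NK cell marker KLRK1 rose to 1.07 ± 0.0565 CPM. Of 7 stromal and epithelial genes tested, 4 rose (COL1A1, COL1A2, DCN and PDGFRB) and 2 fell (KRT8 and CDH1). PDGFRB rose from 0.127 ± 0.146 to 4.06 ± 0.647 CPM and COL1A2 from 3 to 90 counts, a ratio of 30.6 (95% counting interval 10.2 to 151), while KRT8 had 34 counts in the controls and 6 with IRF4 shRNA. The 10 measured stromal and epithelial markers summed to 71.7 to 83.5 CPM and 32.8 to 35.7 CPM, most of which was CDH1, at 70.4 ± 6.67 and 21.5 ± 0.823 CPM. The 9 measured myeloid markers summed to 71.4 to 81.9 CPM in the controls and 51.5 to 57.4 CPM with IRF4 shRNA, and of 4 tested CD68 and CD1C fell 1.56-fold and 2.15-fold and MS4A7 rose 2.70-fold from 4.97 ± 0.533 to 13.4 ± 0.594 CPM. The part of other cells in any result was not tested. In bulk libraries fewer cells with a transcript and less of it per cell cannot be told apart.

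**Figure D4:**
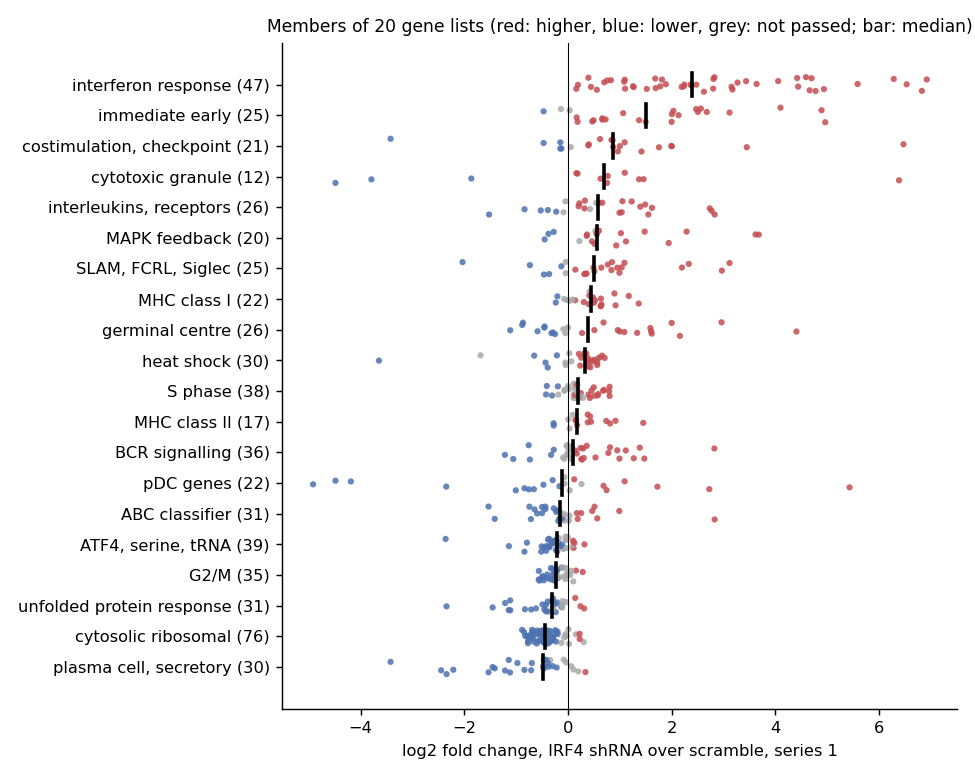
Log2 fold change in series 1 of each tested member of 20 gene lists, ordered by median (black bar), with the number tested in brackets. Red points rose, blue points fell and grey points did not pass. The interferon response list lies wholly above 0 with a median of 2.39, and the plasma cell and secretory list has the lowest median, -0.47.

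IRF4 itself fell further in series 1 than in series 2. IRF4 was at 34.6% of control in series 1 and its log2 fold change in series 2 was -1.05, a difference of -0.46 (edgeR interaction adjusted p = 0.00106). In series 2, 20.2% of 16614 genes were higher and 17.9% lower. Of the series 1 calls, 4369 were called in the same direction in series 2, which is 52.2% of the series 1 calls and 69.0% of the 6332 series 2 calls, and 175 were called in the opposite direction. Of 1652 series 1 changes of at least 2-fold that were tested in series 2, 1232 (74.6%) passed there in the same direction and 17 in the opposite one.

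The size of the effect differed between series in 2248 of 17261 genes (13%). This count rested on single libraries, running from 723 without IRF4 shRNA replicate 2 of series 2 to 5244 without control replicate 1 of series 2. It was 3079 without control replicate 1 of series 1, and 723 to 1357 without each of the other 10 libraries. It was 1385 with the GC trend removed, where 42.0% of the differences were positive, against 61.3%. Genes with a positive difference (a higher value in series 1) had a median GC content of 61.9% and those with a negative one 44.4%. GZMB differed most by p, with log2 fold changes of -4.48 in series 1 and -2.86 in series 2 (difference -1.60, edgeR adjusted p = 1.54e-06). MS4A6A (-3.50 and -1.80), CTSC (-1.86 and -1.22), SIGLEC6 (-2.03 and -1.38) and LHFPL2 (-1.5 and -0.53) also fell further in series 1. RAB14, a trafficking GTPase gene, and MAN1A1, a Golgi mannosidase gene, fell in series 1 (-0.41 and -0.72) and rose in series 2 (0.26 and 0.19), while DENND3 rose in series 1 (0.41) and fell in series 2 (-0.32).

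Of the 4 markers, PRDM1 and IKZF3 had log2 fold changes of -0.37 and -0.44 in series 1 and of -0.0083 and -0.056 in series 2, where neither passed. The differences, -0.34 and -0.37, passed (edgeR interaction adjusted p = 0.00356 and 0.0108). DDX18, an RNA helicase gene of ribosome assembly, likewise read 164, 176 and 185 CPM in the series 1 controls and 96.2, 98.7 and 98.4 CPM with IRF4 shRNA, with a log2 fold change of -0.84 against -0.026 in series 2. Among the largest rises, the log2 fold changes in series 1 and 2 were 6.83 and 7.22 for IFI27, 6.26 and 6.32 for TXNIP and 6.48 and 6.45 for CD52. None of these 3 differences passed, at -0.36 (SE 0.18), -0.038 (SE 0.14) and 0.05 (SE 0.23). IRF7 rose further in series 1, with 2.73 against 1.30 (difference 1.45, edgeR interaction adjusted p = 0.0112), as did SPI1, with 2.25 against 1.08 (difference 1.19). Both genes are rich in GC (67.2% and 64.8%), and with the GC trend removed their differences were 0.38 and 0.39 and still passed. The immediate early list had 22 rises in series 1 and 14 in series 2, with medians of 1.5 and 0.61, and 8 of its genes had a called difference.

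**Figure D5:**
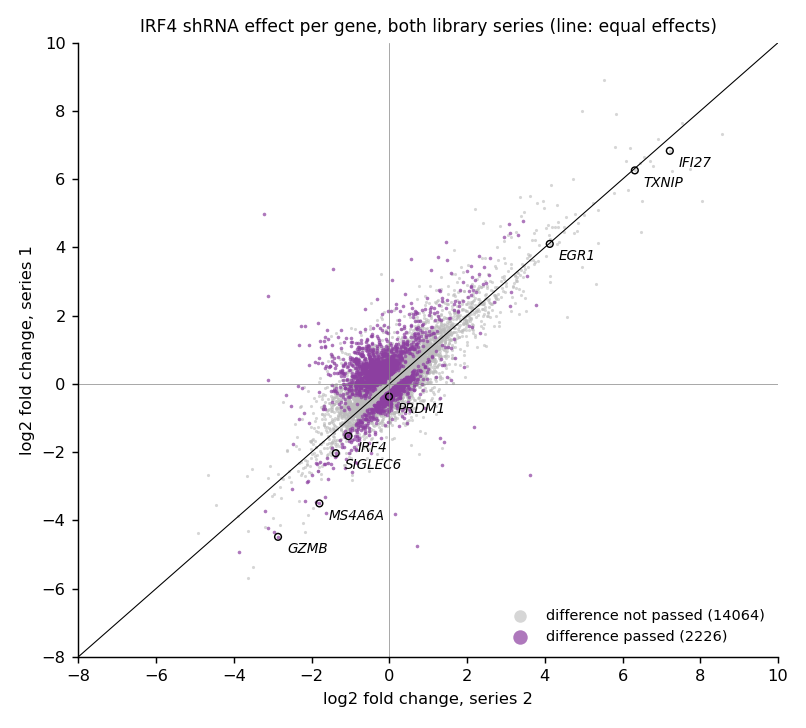
Log2 fold change of IRF4 shRNA over scramble in series 1 (vertical axis) against that in series 2 (horizontal axis) for 16290 genes tested in both, with the line of equal effects. Purple points are the 2226 genes among them whose effect differed between series, and named genes are circled. IFI27, TXNIP and EGR1 lie near the line, while GZMB and MS4A6A lie below it.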

How the data were processed

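RNA was sequenced from TMD8 cells with a scramble or an IRF4 shRNA, with a stranded poly(A) kit and paired 100 base reads, per the labels' protocols. The deposited table holds estimated counts per gene as deposited by the authors, and the submitters' processing notes name STAR, HTSeq and hg38, with no versions or order. The annotation release and the use of strand are not given in the sources used here, so antisense and overlapping genes can share reads. Of the deposited series 1 values 66.8% were whole (tolerance 1e-06), and all were rounded. Every column of the table was used in some step.

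Genes were tested with edgeR 4.0.16 (filterByExpr with a minimum count of 10, TMM, quasi-likelihood test, Benjamini-Hochberg adjustment over all genes tested, threshold 0.05), in R 4.3.3, on the 6 series 1 libraries, and the difference between series as an interaction over all 12. The common coefficient of biological variation was 0.0570. Levels are CPM on TMM-scaled library sizes, with SDs over 3 libraries, and folds come from the fit. The method was tested on simulated data. A list is described by its counts and median, to be read beside the 25.8% of all genes that were higher and the 24.6% lower. Alternatives were other normalizations, DESeq2 1.42.0, other filters, robust estimation, a replicate block, removal of a loess trend with GC content of GENCODE transcripts (span 0.3; a GC value for 98.6% of genes tested), and leaving out each library.

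Genes were named by this rule: the 4 markers and 8 regulators, the 12 largest rises and 12 largest falls (passed, mean of at least 1 CPM, no overlap, no clone names or pseudogenes), up to 4 members of each list with the smallest p, and the 10 genes with the smallest interaction p. A few genes that the rule names are not reported here. Other names were chosen after their values were seen, mainly members that went against their list. The members and lists were chosen with earlier results of these data known.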

Additional observations from a re-analysis of the deposited data

Results flagged for a closer look

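The effect of IRF4 shRNA differed between the 2 library series, by the interaction test, in 2248 genes, and 62 of the genes named here were among them, 24 with a positive and 38 with a negative difference. Values below are the log2 fold change in series 1 minus that in series 2. Of the 62, 47 also passed with the GC trend removed, 55 with the replicate block and 44 without each library in turn, and the sign turned with the GC trend removed in 3, PTPN6, RASAL1 and HLA-E. Those 3 and NFATC1, LMO2, LTA, LTB, CD83, ITGB2, ITGAX, ITPKB, TRPM2, CCND3, CDC25B and PFKL were the ones that did not pass with the GC trend removed, and the PFKL difference was then 0.011 (edgeR adjusted p = 0.937). With the replicate block NFATC1, LTA, CD83, ITGAX, HK1, FRMPD1 and NME1-NME2 did not pass. These genes did not pass in every run with a library left out. The same held for XBP1, TENT5C, OAS2, NR4A3, PTPN6, PFKL, CDC25B, BIK, HLA-E, HLA-F and HLA-DPB1. The number in the library names and the series cannot be told apart. The part of GC content in the differences was not tested beyond the removal of the GC trend.

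Among regulators the difference was -0.46 for IRF4, -0.34 for PRDM1, -0.37 for IKZF3, -0.43 for XBP1, -0.38 for TCF4, 1.19 for SPI1, 1.45 for IRF7, 0.74 for NFATC1, 0.51 for LMO2, -0.44 for NR4A3 and -0.55 for CREB3L2. Of the largest falls it was -1.60 for GZMB, -1.68 for MS4A6A, -1.02 for PTGDR, -1.08 for KCNA3, -0.51 for FRMPD1, -1.55 for TENT5C and -5.44 for NME1-NME2, the readthrough gene with spread controls.

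For surface, signalling and cytokine genes it was -0.63 for SIGLEC6, -1.05 for CD1C, -0.71 for CDH1, -0.80 for ITGB3, 0.79 for ITGB2, 0.39 for ITGAX, -0.19 for CD83, -0.82 for CCL22, 0.36 for LTA, 0.94 for LTB, 0.23 for PTPN6, 0.44 for RASAL1, -0.42 for PIK3R1, 0.49 for ITPKB, -0.32 for TNFAIP3, 0.55 for TRPM2 and 1.39 for CACNA1A. Antigen presentation and interferon genes had 0.23 for HLA-E, 0.63 for HLA-F, 0.41 for HLA-DRB5, 0.30 for HLA-DPB1 and -0.37 for OAS2.

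In the secretory, metabolic and amino acid groups it was -0.63 for ERN1, -0.42 for SEL1L, -0.32 for EDEM1, -0.88 for MAN1A1, -0.47 for ALDH1L2, -0.63 for SLC7A11, -0.37 for SCD, -0.59 for STARD4, 0.78 for PFKL and 0.27 for HK1. In the cell cycle and BCL2 groups it was 0.32 for CDC25B, 0.51 for CCND3, -0.25 for CCND2, 0.47 for CDK2, 0.65 for BIK and -0.30 for BCL2L11. For the other genes with the smallest interaction p it was -0.65 for RAB14, -0.79 for DDX18, -0.94 for LHFPL2, -0.62 for CTSC, -1.03 for ADA2 and 0.75 for DENND3, and ADA2 did not pass in series 1 itself.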

How the results depend on the processing

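The counts of higher and lower genes in series 1 stayed within 1.5 times 4281 and 4081 under all 16 alternatives, and the IRF4 log2 fold change ran from -1.56 to -1.46. Of 2763 values of named genes under an alternative, 2751 kept their side of the threshold, 12 lost it (IRF8, MYC and SPIB) and 0 reversed. The number of genes whose effect differed between series moved from 2248 to 1283 with the replicate block, 1385 with the GC trend removed and 1187 with both, and from 723 to 5244 when each library was left out, and the cause was not tested. The replicate numbers did not pair the libraries, with correlations of same-numbered deviations of -0.019, 0.033 and -0.021, and with the block 4264 genes were higher and 3987 lower in series 1. Members of lists were not recounted with DESeq2 size factors in edgeR, other filters or robust estimation. Depth limits genes with 1 to 3 counts in a group, whose ratios span more than 10-fold.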

Other observations

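The cholesterol, glycolysis and respiratory chain lists had shares of rises and falls near or slightly above those of all genes (25.8% and 24.6%). Of 34 cholesterol and fatty acid genes 9 rose and 9 fell (26.5% each; 5 rose without control replicate 2; median log2 fold change -0.019), with the desaturase gene SCD at 872, 911 and 954 CPM in the controls and 689, 696 and 697 CPM with IRF4 shRNA. Of 36 glycolysis and hypoxia genes 12 rose (33.3%) and 11 fell (30.6%; median -0.0052). HK1 and PFKL, which encode a hexokinase and a phosphofructokinase, rose 1.57-fold and 2.18-fold. Their log2 fold changes were 0.68 and 0.69 with the GC trend removed, against 0.65 and 1.12. Of 40 nuclear genes of the respiratory chain 11 rose (27.5%, or 7 genes without IRF4 shRNA replicate 1) and 13 fell (32.5%). Of 13 mitochondrially encoded genes 2 rose (15.4%, against 25.8% of all genes) and 6 fell (46.2%, against 24.6%). The falls numbered 9 without control replicate 1.

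Of 35 ion channel genes tested 14 were up and 14 down (40% each way, against 25.8% and 24.6% of all genes). KCNA3 fell, while CACNA1A, a calcium channel gene, read 4.14, 3.21 and 3.67 CPM in the controls and 16.5, 14.8 and 15.2 CPM with IRF4 shRNA. TRPM2, a cation channel gated by ADP-ribose, rose 2.04-fold. For CACNA1A and TRPM2 the log2 fold changes were 2.06 and 0.74 with the GC trend removed, against 2.08 and 1.03.

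In 7 genes the controls held at most 3 counts together while every IRF4 shRNA library was at 1 CPM or more: C13orf46, CYP17A1, ECEL1, PIK3R6, PRF1, TMEM229B and XIRP1. The reverse pattern was found in 0 genes.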
